A study of Mus musculus with 12 samples.

Results

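Krüppel-like factors (KLF) are transcription factors that bind GC-rich DNA and CACCC boxes through a C-terminal array of zinc fingers. In endothelium KLF2 and KLF4 are induced by laminar blood flow, through the MEKK3, MEK5 and ERK5 kinases and MEF2 factors, and they switch on genes that keep vessels quiescent and free of clots. KLF6 and the branch of KLF9, KLF10, KLF11 and KLF13 are better known as factors induced by injury, growth factors or hormones. Described here are 9 of these genes, Klf2, Klf3, Klf4, Klf6, Klf7, Klf9, Klf10, Klf11 and Klf13, chosen by name from the 24394 genes listed for every library. All 9 were among the 11634 genes that passed the filter on low values.

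The values come from lung endothelial cells sorted by FACS from C57BL/6J mice at postnatal day 5, in 3 genotypes with 4 libraries each. WT mice were wild type, and the labels do not say whether a Cre or an inducer was given to them. L12-ECKO mice carried VE-cadherin-CreERT2, an inducible Cre under an endothelial promoter, with Lats1f/f and Lats2 f/f, the genes of the Hippo pathway kinases LATS1 and LATS2. L12YT-ECKO mice carried in addition Yapf/f and TAZf/f, the genes of the co-activators YAP and TAZ that those kinases restrain. The labels name no inducer for the knockouts either. They do not tie the 4 libraries of each genotype to different animals, so p-values measure only the spread between these libraries, which may be technical. Libraries were made by QuantSeq, which reads 1 tag near the 3′ end of each transcript, so that levels of different genes can be compared without a correction for length. Each value is the authors' log2 expression, on which 1 unit is a 2-fold change. Sequencing depth is unknown.

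The libraries carried high levels of endothelial genes. Pecam1 lay between 14.50 and 15.20 and Cdh5 between 12.71 and 13.45. Transcripts of TAZ (Wwtr1) fell by 3.001 and those of Yap1 differed by -2.08 in L12YT-ECKO against WT (limma adjusted p = 0.000662 and 0.184), and none of the 4 L12YT-ECKO libraries overlapped WT for either. Lats2 was not lower in the knockouts, with a difference of 0.9985 and no overlap in L12-ECKO against WT (limma adjusted p = 0.26), and Lats1 was scattered, at 5.318 to 7.450 in WT, 0 to 7.401 in L12-ECKO and 0 to 7.896 in L12YT-ECKO. Tags of Lats1 and Lats2 check nothing, because the labels do not name the deleted exons. Marker lists of other cell types moved with some libraries. The mean of 8 tested immune genes was 9.92 in L12-ECKO replicate 1 and 1.45 to 5.18 in the others, with S100a8 and S100a9 at 15.20 and 15.56 there and the lymphocyte markers Cd3e and Cd79a at 0 in 11 and 10 of the 12 libraries. The mean of 7 tested hepatocyte genes was 1.76 to 4.58 in WT, 1.86 to 8.49 in L12-ECKO and 1.71 to 7.602 in L12YT-ECKO. Of those 7, Trf stood at 7.932 to 8.534, Apoa2 at 0 to 8.869 and Ahsg at 0 to 8.35 in WT. Fgb and Apob, on the list but not tested, were at 0 in all WT libraries. In 5 libraries, 3 of L12-ECKO, 2 of L12YT-ECKO and 0 of WT, the deposited tables have a block of displaced rows that holds no KLF gene. These 5 are the libraries with the highest hepatocyte means, 5.996 to 8.49, against at most 4.58 in the other 7. Xist and Ddx3y marked as female 3 libraries of L12-ECKO and 1 in each of the other groups. The 3 female L12-ECKO libraries are the 3 with displaced rows, so sex and displacement cannot be told apart within that group.

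The result for the family was uneven. Against WT, Klf6 was the only one of the 9 genes that passed the test in L12-ECKO, where it rose 3.15-fold. 0.481% of all genes were called in that comparison. In bulk cells a change in the cells that carry a transcript and a change in its amount per cell cannot be told apart. Klf2 and Klf4, the flow-responsive pair, differed from WT by -0.07 and -0.32 on the log2 scale in L12-ECKO, and neither difference passed the test. In L12YT-ECKO 0 of the 9 were called against WT by limma, beside 0.0086% of all genes, and 4 had an unadjusted p under 0.05. There 8 of the 9 had a higher mean than in WT, and the groups of Klf2, Klf6 and Klf11 did not overlap, beside 2.54% of all genes with L12YT-ECKO higher and no overlap.

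**Figure D1:**
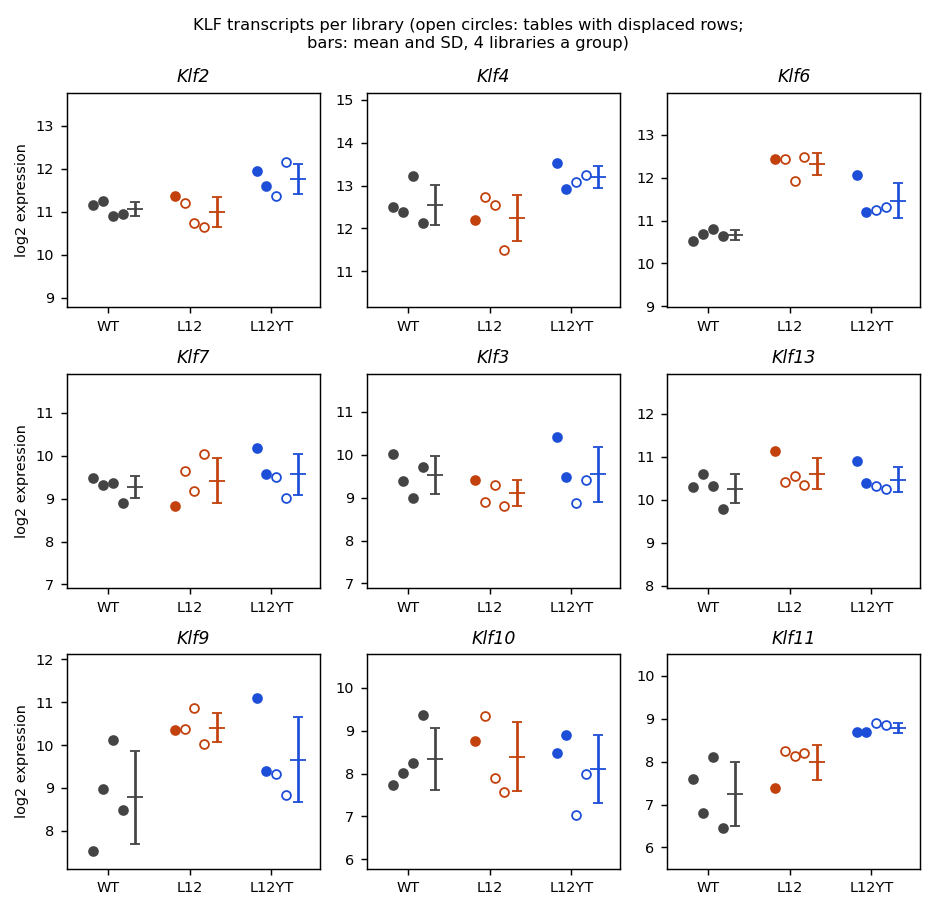
Log2 expression of 9 Klf genes in each library (y axis, 5 log2 units in every panel) by genotype (x axis; L12 stands for L12-ECKO and L12YT for L12YT-ECKO). Points are libraries, open where the table has displaced rows, and bars are the mean and SD of 4 libraries; the 4 L12-ECKO libraries of Klf6, at 11.925 to 12.483, all lie above the WT libraries, at 10.527 to 10.798.

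The KLF factors that mainly activate transcription were represented by Klf2, Klf4, Klf6 and Klf7. Klf4, which encodes an activator of endothelial quiescence genes that is also a pluripotency factor, was the most abundant of the 9 in every WT and every L12YT-ECKO library. It ranked above 94.4% to 99.2% of the genes tested. Klf2 and Klf6 lay at percentiles 89.0 to 96.9 and 88.0 to 97.7, so these 3 genes were abundant in every library. Klf7, known mostly for neuronal and adipocyte development, spanned percentiles 67.5 to 84.6.

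Klf6 (chromosome 13, 5861482 to 5870394 on the plus strand of GRCm38, protein coding) encodes a ubiquitous zinc finger activator that is induced in injured vessels. Its values were 10.527, 10.689, 10.798 and 10.633 in WT replicates 1 to 4. The L12-ECKO libraries stood at 12.423, 12.435, 11.925 and 12.483, and the L12YT-ECKO libraries at 12.070, 11.204, 11.243 and 11.322. Every library of both knockout groups was above every WT library, and L12-ECKO and L12YT-ECKO overlapped only because L12YT-ECKO replicate 1 exceeded L12-ECKO replicate 3. The means were 10.66 ± 0.11, 12.32 ± 0.26 and 11.46 ± 0.41 (SD, n = 4 each).

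Klf6 was 1.66 higher in L12-ECKO than in WT on the log2 scale (SE 0.256, 95% confidence interval 1.12 to 2.19, limma adjusted p = 0.00542). It kept that call without each of the 12 libraries in turn, with differences of 1.60 to 1.78, and without the library rich in immune transcripts (L12-ECKO replicate 1) the difference was 1.62 with an adjusted p of 0.0159 in limma. The call was lost with a plain variance prior, which does not follow the expression level (limma adjusted p = 0.115). It was also lost over the 7 libraries without displaced rows, where the difference was 1.76. There L12-ECKO keeps 1 library, replicate 1, which is rich in immune transcripts. With the displacement as a covariate the difference was 1.85 (limma adjusted p = 0.0238), and with sex as a covariate 1.73 (limma adjusted p = 0.0156). The displaced libraries of L12-ECKO are also its female ones, so within that group these covariates cannot be told apart. In this comparison 0.292% of all genes were called as higher and 0.189% as lower, and 1 of the 9 Klf genes as higher. Groups that did not overlap, with L12-ECKO higher, were found for 2.97% of all genes and for Klf6 alone among the 9.

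Between L12YT-ECKO and WT, Klf6 differed by 0.80 (SE 0.256, 95% confidence interval 0.26 to 1.33, limma adjusted p = 0.633), and between L12YT-ECKO and L12-ECKO by -0.86 (95% confidence interval -1.39 to -0.32, limma adjusted p = 0.499). Neither difference passed the test over all genes, although both intervals lie on 1 side of 0. Over the libraries without displaced rows the latter was -0.79, and over those with them -0.9985. Without L12YT-ECKO replicate 1, the library that stood above the other 3 of its group, the differences were 0.59 and -1.06. Thus the means of Klf6 lay in the order WT, L12YT-ECKO, L12-ECKO, with the step from WT to L12-ECKO alone past the threshold.

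Klf2 (chromosome 8, 72319033 to 72321656 on the plus strand, protein coding) encodes a factor that laminar flow induces and that keeps endothelium quiescent. The WT libraries stood at 11.161, 11.255, 10.902 and 10.944, those of L12-ECKO at 11.371, 11.208, 10.732 and 10.655, and those of L12YT-ECKO at 11.952, 11.597, 11.376 and 12.153. WT and L12-ECKO overlapped throughout, whereas all 4 L12YT-ECKO libraries were above all 8 others, the lowest by a narrow margin.

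Klf2 differed between L12-ECKO and WT by -0.07 (95% confidence interval -0.63 to 0.48, limma adjusted p = 0.933), an interval that spans both directions. This sign turned to 0.09 with the displacement as a covariate, to 0.12 with sex as a covariate and to 0.31 over the libraries without displaced rows. The last value rests on replicate 1 alone for L12-ECKO. Klf2 was 0.70 higher in L12YT-ECKO than in WT (95% confidence interval 0.15 to 1.26) and 0.78 higher than in L12-ECKO (0.22 to 1.33). Neither difference passed the test over all genes (limma adjusted p = 0.748 and 0.586). Without displaced rows the latter was 0.40, and within the libraries that have them 0.90.

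Klf4 (chromosome 4, 55527143 to 55532466 on the minus strand, protein coding) stood at 12.494, 12.378, 13.219 and 12.138 in WT. It stood at 12.191, 12.739, 12.540 and 11.498 in L12-ECKO, and at 13.537, 12.924, 13.078 and 13.242 in L12YT-ECKO. L12YT-ECKO was above L12-ECKO in every library, and above WT apart from WT replicate 3.

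The difference of Klf4 between L12YT-ECKO and L12-ECKO was 0.95 (SE 0.282, 95% confidence interval 0.36 to 1.54), with an unadjusted p of 0.0031 in limma and an adjusted p of 0.487. It was 1.04 over the libraries without displaced rows and 0.90 over those with them. Against WT, Klf4 differed by 0.64 in L12YT-ECKO (0.05 to 1.23, limma adjusted p = 0.763) and by -0.32 in L12-ECKO (-0.90 to 0.27, limma adjusted p = 0.675). Klf2 and Klf4 thus had their highest group mean in L12YT-ECKO, while the mean of Klf6 was highest in L12-ECKO.

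Klf7 (chromosome 1, 64029447 to 64122282 on the minus strand) ranged from 8.889 to 9.490 in WT, 8.834 to 10.043 in L12-ECKO and 9.015 to 10.176 in L12YT-ECKO. The 3 groups overlapped, and its differences of 0.16, 0.30 and 0.14 did not pass the test (limma adjusted p of 0.895 for the first). The first and the third changed sign under some alternatives.

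**Figure D2:**
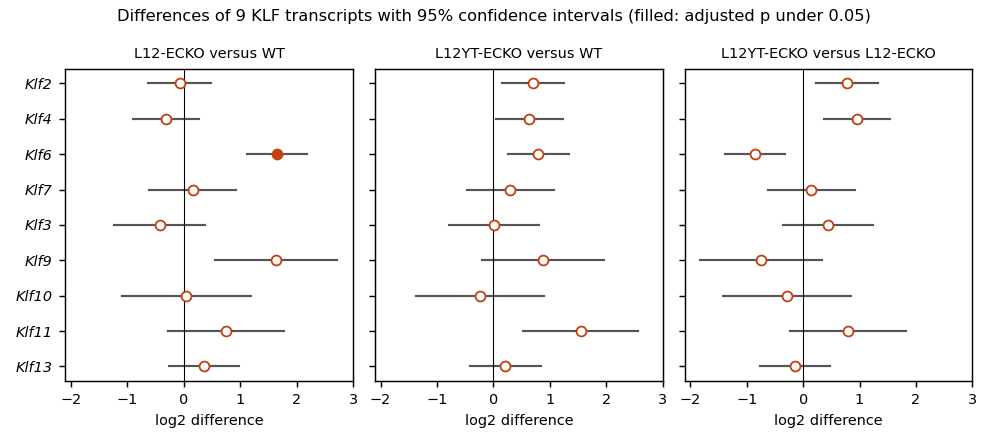
Log2 differences (x axis) of 9 Klf genes (y axis) in the 3 comparisons, with 95% confidence intervals from limma; a filled point has an adjusted p under 0.05. Klf6 in L12-ECKO versus WT, at 1.66, is the only filled point, and Klf2 and Klf4 lie at -0.07 and -0.32 there and above 0 in both comparisons with L12YT-ECKO as the first group.

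The balance between the 3 abundant genes was examined within libraries, after their values had been seen and therefore with no test. Klf6 lay below Klf4 by 1.51 to 2.42 log2 units in WT, where the differences of Klf6 minus Klf4 were -2.42 to -1.51. In L12YT-ECKO they were -1.92 to -1.47, and in L12-ECKO -0.62 to 0.98. The difference was 0.07 ± 0.70 in L12-ECKO, -1.90 ± 0.40 in WT and -1.74 ± 0.20 in L12YT-ECKO (SD, n = 4 each). The L12-ECKO libraries were thus set apart from both other groups, and in L12-ECKO replicates 1 and 4 Klf6 was the most abundant Klf gene, ahead of Klf4. On a linear scale Klf6 made up 10.3% to 14.0% of the summed signal of the 9 genes in WT, 23.4% to 39.3% in L12-ECKO and 12.6% to 15.6% in L12YT-ECKO. Klf4 made up 39.6% to 54.9%, 19.9% to 35.8% and 43.2% to 49.5%. Klf4 minus Klf2 overlapped between all groups, at 1.12 to 2.32, 0.82 to 1.81 and 1.09 to 1.70.

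**Figure D3:**
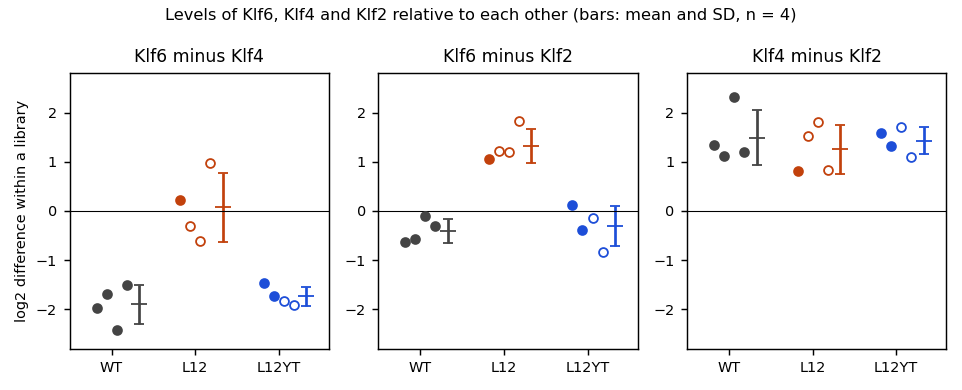
Differences between 2 Klf genes within a library (y axis, log2) by genotype (x axis; L12 stands for L12-ECKO and L12YT for L12YT-ECKO), with open points for tables with displaced rows and bars for the mean and SD of 4 libraries. Klf6 minus Klf4 and Klf6 minus Klf2 are highest in L12-ECKO with no overlap, and Klf4 minus Klf2 overlaps across the 3 groups.

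Klf6, Klf2 and Klf4 were the most abundant of the 9 and differed in which group had the highest mean, so their promoters are shown. Each is the 250 bases before the RefSeq start of the gene on GRCm38.p6, read 5′ to 3′ along the gene's strand. Capitals mark the motifs searched on both strands: the TEAD site GGAATG, the AP-1 site TGANTCA, the CRE core TGACG, the CACCC box, the GC box GGGCGG, the MEF2 site and the CArG box. In the promoter of Klf4 the first GC boxes overlap each other.
Klf6, chr13:5861239-5861488, plus strand: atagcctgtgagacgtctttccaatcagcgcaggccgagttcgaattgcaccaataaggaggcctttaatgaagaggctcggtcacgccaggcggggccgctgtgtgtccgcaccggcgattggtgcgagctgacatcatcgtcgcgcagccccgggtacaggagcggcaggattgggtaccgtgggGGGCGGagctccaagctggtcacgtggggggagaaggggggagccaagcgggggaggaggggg
Klf2, chr8:72318812-72319061, plus strand: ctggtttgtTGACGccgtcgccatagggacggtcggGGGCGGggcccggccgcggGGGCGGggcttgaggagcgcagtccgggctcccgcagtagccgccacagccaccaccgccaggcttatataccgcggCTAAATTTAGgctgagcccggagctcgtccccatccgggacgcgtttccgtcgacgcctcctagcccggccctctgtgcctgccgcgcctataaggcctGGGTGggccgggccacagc
Klf4, chr4:55532476-55532725, minus strand: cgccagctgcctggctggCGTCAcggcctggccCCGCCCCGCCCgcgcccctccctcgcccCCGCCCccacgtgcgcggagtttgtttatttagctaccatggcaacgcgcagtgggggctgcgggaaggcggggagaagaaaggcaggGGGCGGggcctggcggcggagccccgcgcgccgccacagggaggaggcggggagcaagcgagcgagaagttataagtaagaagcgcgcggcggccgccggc

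The Klf2 window holds the MEF2 site CTAAATTTAG, the site class through which ERK5 and MEF2 act on this gene, with its first base at position -118 from the start. That site occurred in 3.01% of 27025 promoters in the RefSeq table and in 1 of the 8 Klf genes found there. GC boxes, the site class that SP and KLF proteins bind, occurred in 7 of the 8 and in 32.9% of all promoters, and the Klf6 window holds 1 of them, at position -63. CRE cores occurred in 4 of the 8 and in 17.9% of all, Klf2 and Klf4 included. CACCC, in either orientation, occurred in 5 of the 8 and in 51.3% of all. The AP-1 site occurred in Klf9 alone, where it overlaps a CACCC box, and in 6.87% of all promoters. GGAATG, the site of the TEAD factors that YAP and TAZ bind, occurred in none of the 8 windows and in 12.6% of all promoters, and the CArG box in none of the 8 and in 1.40%. These counts are of letters in short windows, and binding was not measured.

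Klf3, which encodes a repressor that recruits the co-repressor CtBP, was the 1 gene of its class among the 9 (chromosome 5, 64803388 to 64832901 on the plus strand). It ranged from 8.997 to 10.023 in WT, 8.813 to 9.421 in L12-ECKO and 8.867 to 10.414 in L12YT-ECKO, and the groups overlapped. Its differences were -0.43 in L12-ECKO and 0.01 in L12YT-ECKO against WT, and 0.44 between the knockouts. The first had a limma adjusted p of 0.677 and became 0.05 with the displacement as a covariate. Over the 12 libraries Klf3 correlated with the mean of the hepatocyte genes at r = -0.71, and the part of those transcripts in its values was not tested.

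Klf9, Klf10, Klf11 and Klf13 encode the factors that bind the co-repressor SIN3A. Klf9 (chromosome 19, 23141226 to 23168134 on the plus strand), a target of the glucocorticoid and thyroid hormone receptors, had the widest spread of the 9. WT libraries stood at 7.533, 8.976, 10.115 and 8.485, L12-ECKO libraries at 10.352, 10.381, 10.856 and 10.034, and L12YT-ECKO libraries at 11.100, 9.387, 9.334 and 8.826. WT replicate 3 alone reached into the range of L12-ECKO, and L12YT-ECKO replicate 1 was higher than every other library.

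Klf9 had a difference of 1.63 between L12-ECKO and WT, nearly the size of that of Klf6, but with an SE of 0.515 against 0.256 (95% confidence interval 0.55 to 2.71, unadjusted p = 0.00534 and adjusted p = 0.191 in limma). Without WT replicate 3 it was 2.07 with an adjusted p of 0.0667, and over the fits without 1 library the adjusted p of limma was 0.0667 to 0.408. The spread within groups was 0.866 for Klf9 and 0.288 for Klf6 (pooled SD), and 43.2% and 2.66% of the genes tested had a smaller one. Between L12YT-ECKO and WT Klf9 differed by 0.88, and by 0.41 without L12YT-ECKO replicate 1. Between the knockouts it differed by -0.74, and by -1.22 without that library.

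Klf11 (chromosome 12, 24651274 to 24662789 on the plus strand), an early gene of TGF-beta signalling and a regulator of insulin expression, stood at 7.590, 6.806, 8.098 and 6.458 in WT. It stood at 7.383, 8.240, 8.133 and 8.190 in L12-ECKO, and at 8.680, 8.679, 8.901 and 8.862 in L12YT-ECKO. All L12YT-ECKO libraries lay close together and above both other groups. The difference between L12YT-ECKO and WT was 1.54 (SE 0.489, 95% confidence interval 0.52 to 2.57, unadjusted p = 0.00517 and adjusted p = 0.633 in limma), and that between L12YT-ECKO and L12-ECKO was 0.79 (-0.23 to 1.82, limma adjusted p = 0.879). Klf11 was 0.75 higher in L12-ECKO than in WT (limma adjusted p = 0.54). Over the 7 libraries without displaced rows, with replicate 1 alone for L12-ECKO, this was 0.15.

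Klf10, also an early gene of TGF-beta signalling (chromosome 15, 38291463 to 38300706 on the minus strand), showed no order of the groups. It ranged from 7.727 to 9.376 in WT, 7.559 to 9.339 in L12-ECKO and 7.043 to 8.906 in L12YT-ECKO. Its differences of 0.05, -0.24 and -0.28 each turned sign without some library, and the interval of the first reached from -1.09 to 1.19. Klf13, which takes part in lymphocyte and heart gene expression (chromosome 7, 63886351 to 63938915 on the minus strand), ranged from 9.787 to 10.593 in WT, 10.340 to 11.137 in L12-ECKO and 10.239 to 10.897 in L12YT-ECKO. Its differences were 0.36, 0.21 and -0.14 and did not pass the test.

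Counted over the 9 genes, 6 were higher and 3 lower in L12-ECKO than in WT, with a median difference of 0.16, against -0.02 over all genes. In L12YT-ECKO 8 were higher and 1 lower than in WT, with a median of 0.64 against 0.08. Between L12YT-ECKO and L12-ECKO 5 were higher and 4 lower, with a median of 0.14 against 0.09. Between the knockouts limma called 0 of the 9, beside 0.0688% of all genes. At an unadjusted p under 0.05 there were 2 of the 9 in L12-ECKO against WT (Klf6 and Klf9), 4 in L12YT-ECKO against WT (Klf2, Klf4, Klf6 and Klf11) and 3 between the knockouts (Klf2, Klf4 and Klf6), beside 12.2%, 6.23% and 6.08% of all genes. Groups that did not overlap, with L12YT-ECKO above L12-ECKO, were found for 3 of the 9 (Klf2, Klf4 and Klf11), beside 2.75% of all genes. The comparisons with WT share the WT libraries, and the 9 genes are not independent of each other.

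Over the 12 libraries, which share differences of genotype, the values of Klf6 followed those of Klf9 most closely among the 9 (Pearson r = 0.77), and Klf2 followed Klf4 (r = 0.68). The lowest value was that of Klf10 with Klf11 (r = -0.35). Among all other genes tested, the 3 most like Klf6 were Bsdc1 (r = 0.94), Crim1 (r = 0.92), a target of YAP and TAZ that encodes a BMP-binding membrane protein, and Cyp4b1 (r = 0.92), which encodes a fatty acid hydroxylase. Those most like Klf2 were Tapbp (r = 0.85), Dtx2 (r = 0.85) and Zfp110 (r = 0.84, at 0 in 3 of the 12 libraries). Those most like Klf4 were St6galnac4 (r = 0.88), Ptpn23 (r = 0.86) and Tmem81 (r = 0.85, at 0 in 6 of the 12 libraries). Crim1 had a mean of 12.07 in L12-ECKO, against 10.06 in WT and 10.50 in L12YT-ECKO. It rose by 2.01 in L12-ECKO against WT (limma adjusted p = 0.00168). In the same order of groups the means of Bsdc1 were 8.27, 5.27 and 6.93, and those of Cyp4b1 11.19, 9.63 and 10.33. Their limma adjusted p in L12-ECKO against WT was 0.088 and 0.0239. Bsdc1, Crim1 and Cyp4b1 were picked for their correlation with Klf6. That their means were also highest in L12-ECKO is therefore no separate result, and its cause was not tested.

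The rest of the family was mostly low in these cells. Of 16 other Klf and Sp genes, 7 passed the filter. Of all genes limma called 0.481% in L12-ECKO and 0.0086% in L12YT-ECKO against WT, and 0.0688% between the knockouts. Of the 7 it called 0 in any comparison. Sp1 and Sp3, the most abundant of them and general GC box activators, differed by 0.21 and -0.24 between L12-ECKO and WT. Klf1, the erythroid factor, was listed at 0 in 11 of 12 libraries. Klf12, a CtBP-binding repressor like Klf3, stood at 7.661, 5.046, 6.113 and 7.939 in WT and at 1.874, 0, 0 and 5.198 in L12-ECKO, a difference of -4.92 (unadjusted p = 0.00864 and adjusted p = 0.225 in limma), and was named here after its values were seen. In L12YT-ECKO it stood at 0, 2.737, 5.556 and 3.162, a difference from WT of -3.83 (unadjusted p = 0.0347 and adjusted p = 0.76 in limma). A value of 0 may be a gene that was not sampled, and the lowest value above 0 in L12-ECKO replicate 3, which lists Klf12 at 0, was 4.981. Of 12 genes for KLF cofactors and ubiquitin ligases, 0 were called in any comparison. The most abundant, Ctbp1, a co-repressor of KLF3, and Fbxw7, which marks KLF2 for degradation, differed by 0.16 and 0.36 between L12-ECKO and WT.

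The 13 genes upstream of Klf2 and Klf4 cover the MEKK3-ERK5 cascade, MEF2 factors, their HDAC partners and the CCM complex that restrains MEKK3. Of these 13, 1 was called in L12-ECKO against WT, beside 0.481% of all genes. Mef2a, which encodes one of the MEF2 factors, stood at 13.106, 13.251, 12.893 and 13.398 in WT and 12.458, 12.156, 11.962 and 12.042 in L12-ECKO, with no overlap. It fell by 1.01 (limma adjusted p = 0.0474). Of 12 fits without 1 library it kept its call in 2, those without WT replicate 3 and L12YT-ECKO replicate 1 (adjusted p of 0.0374 to 0.16 over the 12). It kept its call in 4 of 12 other settings and lost it with the plain prior, log2(value + 1), no filter, only the groups compared, the replicate block, the displacement or sex as a covariate, and over the libraries without displaced rows (adjusted p of up to 0.726). The list had a median difference of 0.01 in that comparison, 0.23 between L12YT-ECKO and WT and 0.36 between the knockouts. In the last 2 comparisons 0 of the 13 were called, beside 0.0086% and 0.0688% of all genes.

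Of 17 genes listed for every library and known to be induced by KLF2 or KLF4 in endothelium, 14 were tested. In L12-ECKO 4 were higher and 10 lower than in WT, with a median of -0.46 against -0.02 over all genes. Beside 0.481% of all genes, 1 of the 14 was called. Gja4, which encodes a connexin of arterial endothelium, fell by 1.37 from a mean of 11.44 to 10.07 (limma adjusted p = 0.0481), a call that was lost in each of 12 fits without 1 library (adjusted p of 0.054 to 0.16) and kept in 4 of 12 other settings. Groups with L12-ECKO lower and no overlap were 3 of the 14, beside 3.36% of all genes. Klf2 and Klf4 themselves had differences of -0.07 and -0.32 in this comparison.

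In L12YT-ECKO 12 of the same 14 genes were higher and 2 lower than in L12-ECKO, with a median of 0.54 against 0.09. Beside 0.0688% of all genes, limma called 0 of these 14. Groups did not overlap for 5 of them, with L12YT-ECKO higher, beside 2.75% of all genes, and these 5 are named here after their values were seen. These were Gja4 (1.38), Aqp1, a water channel (1.25), Timp3, an inhibitor of matrix proteases (0.90), Nos3, the endothelial nitric oxide synthase (0.86), and Thbd, the anticoagulant receptor thrombomodulin (0.74), with unadjusted p of 0.000208 to 0.0195 and adjusted p of 0.129 to 0.704. The L12-ECKO libraries held Nos3 at 8.708, 8.956, 9.456 and 9.500, and the L12YT-ECKO libraries at 9.874, 9.952, 10.029 and 10.224. Klf2 and Klf4 had differences of 0.78 and 0.95 in this comparison.

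Of 10 genes that KLF2 or KLF4 hold down in endothelium, 8 were tested. In L12-ECKO 6 were higher and 2 lower than in WT. Limma called 3 as higher, beside 0.292% of all genes, and of these 3 Ctgf and Edn1 are described. Ctgf, a matricellular protein gene that also stands on the list of YAP and TAZ targets, rose by 6.18 (limma adjusted p = 0.000378) and kept its call in 12 of 12 fits without 1 library. Edn1, which encodes the vasoconstrictor endothelin 1, rose by 1.63 (limma adjusted p = 0.0284), and its call was lost without WT replicates 1, 2 and 4 and without L12-ECKO replicates 1, 2 and 4 (adjusted p of up to 0.09). It was also lost with the displacement as a covariate, the plain prior and no filter (adjusted p of up to 0.184). WT libraries held Edn1 at 10.722, 10.996, 10.954 and 10.172, L12-ECKO libraries at 13.020, 12.039, 11.570 and 12.734, and L12YT-ECKO libraries at 11.214, 10.463, 10.688 and 11.157, so that L12-ECKO was set apart from both other groups. Between L12YT-ECKO and L12-ECKO 7 of the 8 were lower, 3 of them with no overlap, beside 1.62% of all genes. Ctgf fell by 4.23 there (limma adjusted p = 0.019), beside 0.0602% of all genes called as lower, and lost its call without WT replicate 2, L12-ECKO replicate 1 and L12YT-ECKO replicates 1 and 2 (adjusted p of up to 0.0952). Under the other settings Ctgf kept this call in 7 of 13 and lost it with the plain prior, log2(value + 1), the displacement or sex as a covariate, and over the libraries without or with displaced rows alone (adjusted p of up to 0.478). The median of the list was 1.64 in L12-ECKO against WT, 0.68 in L12YT-ECKO against WT and -0.84 between the knockouts.

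**Figure D4:**
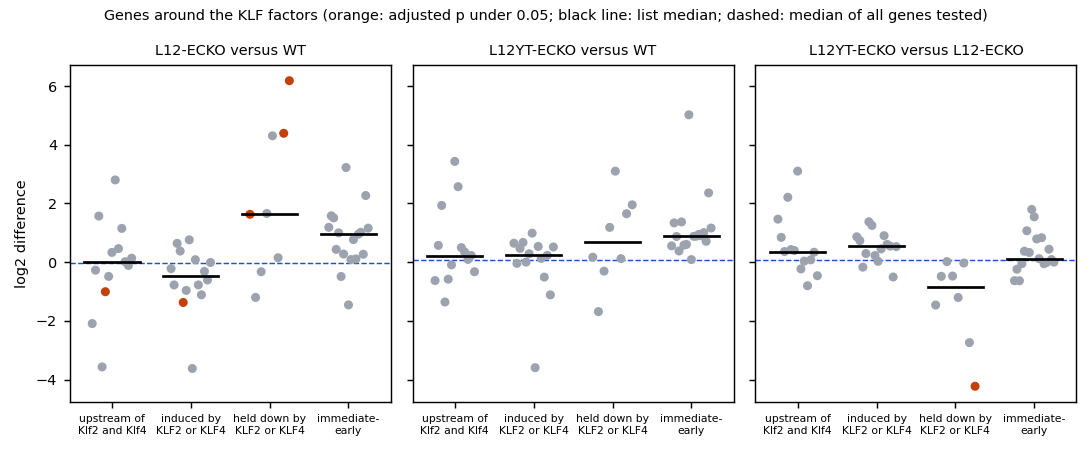
Log2 differences (y axis) of the tested genes of 4 lists (x axis) in the 3 comparisons; each point is a gene, orange with an adjusted p under 0.05, the black line is the list's median and the dashed line the median of all genes. The genes that KLF2 or KLF4 hold down have a median of 1.64 in L12-ECKO versus WT and -0.84 in L12YT-ECKO versus L12-ECKO.

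Of 18 targets of YAP and TAZ, 14 were tested. Lats2, which is floxed in both knockouts, is 1 of the 14 and enters the counts and medians given here. It differed by 0.9985 in L12-ECKO against WT and by -0.9595 between the knockouts. In L12-ECKO 13 were higher than in WT, and Ctgf, Cyr61, Crim1 and Tgfb2 were called, with differences of 6.18, 4.22, 2.01 and 1.96. Of all genes 0.292% were called as higher there. The first 3 kept their calls in 12 of 12 fits without 1 library and Tgfb2 in 6. Under the other settings Tgfb2 kept its call in 6 of 12 and lost it, among others, with the displacement or sex as a covariate and with the plain prior (adjusted p of up to 0.491). In L12YT-ECKO 13 of the 14 were lower than in L12-ECKO, and Ctgf, Cyr61 and Crim1 were called, Crim1 in 4 and Cyr61 in 12 of 12 fits without 1 library, and in 6 and 11 of 13 under the other settings. Of all genes 0.0602% were called as lower there. The median of the list was 1.10 in L12-ECKO and 0.32 in L12YT-ECKO against WT, and the values for Klf6 were 1.66 and 0.80.

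Several Klf genes are induced early after cell stress or dissociation, so the immediate-early genes were read beside them. Of 17 tested, 15 were higher in L12-ECKO and all 17 in L12YT-ECKO than in WT, with medians of 0.95 and 0.89. Beside 0.481% and 0.0086% of all genes, limma called 0 of the 17 in each. The median between the knockouts was 0.12. The mean of the 17 genes was 9.27, 9.08, 9.86 and 9.51 in the WT libraries. It was 10.80, 10.74, 9.26 and 10.19 in those of L12-ECKO, and 10.39, 10.31, 10.77 and 10.87 in those of L12YT-ECKO. L12YT-ECKO was above every WT library, whereas the mean of L12-ECKO replicate 3 was at the level of WT. That mean includes Atf3 at 0, in the library with the fewest genes above 0 (9836), and single genes went both ways. Dusp1 stood there at 12.031, above every WT library (at most 11.606), and Jund at 11.096, below every WT library (at least 12.056). Klf6 was 11.925 in that library, above every WT library and below the other 3 of its group. Over the 12 libraries the mean of these genes correlated with Klf11 (r = 0.63), Klf6 (r = 0.56) and Klf2 (r = 0.55), and its part in their differences was not tested. The most abundant were Jun and Junb, subunits of AP-1. Jun stood at 12.700 to 13.135 in WT, 12.935 to 13.856 in L12-ECKO and 13.069 to 13.462 in L12YT-ECKO. It differed by 0.38 between L12YT-ECKO and WT (limma adjusted p = 0.824). Junb stood at 11.669 to 11.959 in WT, 11.606 to 14.302 in L12-ECKO and 12.749 to 13.613 in L12YT-ECKO. It differed by 1.37 between L12YT-ECKO and WT (limma adjusted p = 0.748). The groups did not overlap, beside 2.54% of all genes with L12YT-ECKO higher.

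Glucocorticoid-responsive genes were read beside Klf9. Of 9 tested, 7 were higher in L12-ECKO and 8 in L12YT-ECKO than in WT, with medians of 0.95 and 0.53. Beside 0.481% and 0.0086% of all genes, limma called 0 of the 9 in each. The 2 most abundant had differences of opposite sign in L12-ECKO against WT: Dusp1, a MAP kinase phosphatase that is also an immediate-early gene, differed by 0.95, and Sgk1, a kinase, by -0.65. TGF-beta early genes were read beside Klf10 and Klf11. Of 12 tested, 4 were higher and 8 lower than in WT in each knockout group, with medians of -0.51 in L12-ECKO and -0.06 in L12YT-ECKO. In L12-ECKO 1 of the 12 was called, beside 0.481% of all genes, and in L12YT-ECKO 0, beside 0.0086%.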

How the data were processed

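Each of 12 tables, 1 per library, lists 24421 rows with 1 value. The values are deposited log2 expression that the authors had already normalized. The log2 scale and a quantile normalization were inferred, since values of equal rank differed between libraries by no more than 0.168 over the top 5000 ranks. Such scaling removes differences in total output. Bowtie2, edgeR and mm10 are named per the submitters' processing notes, with versions not given in the sources used here. Libraries were made by QuantSeq per the labels' protocols. Depth is unknown.

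Genes under other names in some tables (27) and the displaced or exchanged rows (32 and 2) were left out. limma 3.58.1 in R 4.3.3 (statmod 1.5.0) fitted 1 mean for each genotype over the 12 libraries, using a robust variance prior that follows expression (9 residual and 10.1 median prior degrees of freedom). Tested were 11634 genes with a CPM of at least 1, computed from the values raised from the log2 scale, in at least 4 libraries. P-values were adjusted over all of them by the Benjamini-Hochberg method and called under 0.05. The fit was tested on simulated data.

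The 9 genes, the gene lists and the settings were chosen with earlier results of these data known. Of each list, called members (at most 4, by p) or else the 2 most abundant were named, and others as stated. A called gene of the lists that the rule names is not reported here. Positions are from GENCODE vM21 on GRCm38, the build of mm10, and promoters from RefSeq, where 8 of the 9 genes were found. Alternatives changed the prior, scale, filter, centring, groups fitted and covariates, and left out each library.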

Additional observations from a re-analysis of the deposited data

Results flagged for a closer look

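Among 27 sets of 4 libraries (9 genes in 3 groups), 3 held a library set far apart from the others, measured by its gap to the nearest library over the range of the group. Chance flags about 1 in 20 such groups. Klf6 was 11.925 in L12-ECKO replicate 3, against 12.423 to 12.483 in the other libraries of that group. Klf6 was 12.07 in L12YT-ECKO replicate 1, against 11.204 to 11.322. Klf11 was 7.383 in L12-ECKO replicate 1, against 8.133 to 8.24. The immune genes were highest in that last library, with a mean of 9.92, and their part in its Klf11 value was not tested.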

How the results depend on the processing

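Of 657 values of the 27 differences under alternatives, 630 kept their direction and their side of the threshold, 2 lost the call of Klf6 in L12-ECKO against WT and 25 changed sign, all with a main difference of at most 0.43 in size. Adjusted p-values are from limma. The call of Klf6 was lost with a plain prior (adjusted p = 0.115), so that 0 of the 9 genes were called there. It was also lost over the libraries without displaced rows (1.76), where L12-ECKO replicate 1 alone is assumed to vary like the other groups. Without 1 library 1 of the 9 was called in each fit.

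Signs turned as follows. In L12-ECKO against WT, with the displacement as a covariate Klf2 became 0.0929 and Klf3 0.0522. Over libraries without displaced rows, with replicate 1 alone for L12-ECKO, Klf2 became 0.31 and Klf7 -0.43. With sex as a covariate Klf2 became 0.12. In L12YT-ECKO against WT Klf10 became 0.21 with the displacement as a covariate and 0.36 without displaced rows. Between the knockouts Klf7 became -0.36 over the libraries with displaced rows. Leaving out 1 library gave -0.20 to 0.0382 for Klf2, -0.0509 to 0.35 for Klf7 and -0.27 to 0.39 for Klf10 in L12-ECKO against WT. It gave -0.28 to 0.24 for Klf3 and -0.50 to 0.12 for Klf10 in L12YT-ECKO against WT, and -0.0597 to 0.35 for Klf7, -0.56 to 0.0702 for Klf10 and -0.29 to 0.0306 for Klf13 between the knockouts.

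Over all genes, the 56 called in L12-ECKO against WT became 7 with a plain prior, 27 with log2(value + 1), 87 with values under 5 raised to 5, 21 with no filter, 30 with only the groups compared, 15 with the displacement and 15 with sex as a covariate, and 15 to 80 without 1 library. The 1 called in L12YT-ECKO against WT became 1 to 3 without 1 library. The 8 called between the knockouts became 3 with a plain prior, 4 with log2(value + 1), 5 with only the groups compared, 14 without and 0 within the displaced libraries, 5 with sex as a covariate and 4 to 9 without 1 library. The causes were not tested.

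Replicate numbers did not pair the libraries: deviations of same-numbered libraries correlated at -0.05 to 0.06, and 3 of 12 correlated best with their own number. With the replicate block the difference of Klf6 in L12-ECKO against WT was 1.66 (adjusted p = 0.00948). The block changed no call among the 9 genes.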
